A study of Mus musculus with 16 samples.

Results

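The Foxn4 list held 2956 regions of the mouse genome where CUT&RUN with an antibody to Foxn4 gave a called peak, of 9731 regions in all 3 peak lists of the study. CUT&RUN uses an antibody to bring micrococcal nuclease to a protein in unfixed cells, so that the DNA beside the protein is cut free and sequenced. All members of the Foxn4 list were used, with no selection by value. The material was retina from outbred CD-1 mice at embryonic day 16, pooled and dissociated, and about 300000 cells entered each assay. The labels name no genetic change or drug for any group. The anti-Foxn4 group and its mouse IgG control group had 2 libraries each, 4 of the 16 libraries in the study, and their nuclease digestion lasted about 12 h against 1 h for the other groups. The Foxn3 list (2794 peaks, rabbit IgG control) and the Rfx3 list (3981 peaks, rabbit IgG control) therefore differ from the Foxn4 list in antibody, control species and digestion time, and these cannot be told apart.

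One list stands for the Foxn4 libraries, so no value below has a spread between replicates and none has a test. The ranges beside shares are 95% Wilson intervals. They describe counting error alone, since neighbouring peaks and genes are not independent. Signal in the IgG libraries, read depth and gene expression were not analysed here, so neither the tissue nor the specificity of the antibody was checked by these values. The authors' score, whose scaling is not given in the sources used here, moved in equal steps and ran from 2.67 to 37.3 with a median of 7.11. It is used below only to rank peaks within the list.

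Foxn4 is a winged-helix transcription factor of retinal progenitors. It is known for its requirement in horizontal cells and for biasing progenitors towards amacrine cells, acting through Ptf1a and other fate regulators, and for raising Dll4, a Notch ligand that restrains photoreceptor fate. Proteins of its subclass can recognise a short core, GACGC, besides the general forkhead site, GTAAACA. NF-Y, a trimeric factor found in nearly all cells, binds CCAAT at promoters, and Rfx factors bind the X-box, whose conserved core reads GTTGCC, at many genes of the cilium.

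Foxn4 peaks at genes lay mostly just upstream of the transcription start, and the CCAAT sequence was common there. The 250 bases before the start of 10 genes, which cover high-scoring promoters and the main gene classes below, are therefore printed first. They come from RefSeq (GRCm38.p6, the mm10 assembly), 5′ to 3′ on the strand of the gene, and capitals mark CCAAT or its reverse complement ATTGG.

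Ensa (chr3:95624730-95624979, plus strand): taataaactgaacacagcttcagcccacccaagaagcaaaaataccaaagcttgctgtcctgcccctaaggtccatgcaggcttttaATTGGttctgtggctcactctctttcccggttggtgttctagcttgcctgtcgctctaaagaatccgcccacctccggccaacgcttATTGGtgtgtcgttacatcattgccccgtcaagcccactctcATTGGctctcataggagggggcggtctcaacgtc
Ggps1 (chr13:14063489-14063738, minus strand): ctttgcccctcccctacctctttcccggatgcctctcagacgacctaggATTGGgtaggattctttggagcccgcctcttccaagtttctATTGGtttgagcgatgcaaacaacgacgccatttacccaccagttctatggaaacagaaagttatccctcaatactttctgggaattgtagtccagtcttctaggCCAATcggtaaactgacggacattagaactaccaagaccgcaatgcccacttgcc
Drc3 (chr11:60353130-60353379, plus strand): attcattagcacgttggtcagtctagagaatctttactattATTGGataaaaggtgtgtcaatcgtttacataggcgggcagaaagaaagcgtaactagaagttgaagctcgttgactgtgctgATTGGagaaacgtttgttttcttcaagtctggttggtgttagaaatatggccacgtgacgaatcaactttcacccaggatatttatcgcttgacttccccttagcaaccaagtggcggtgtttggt
C2cd3 (chr7:100371983-100372232, plus strand): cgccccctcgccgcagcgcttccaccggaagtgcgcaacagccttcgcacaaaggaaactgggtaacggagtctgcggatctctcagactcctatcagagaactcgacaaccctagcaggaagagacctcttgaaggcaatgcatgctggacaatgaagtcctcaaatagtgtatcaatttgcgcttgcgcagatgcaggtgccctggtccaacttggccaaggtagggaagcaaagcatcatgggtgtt
Rab8a (chr8:72160950-72161199, plus strand): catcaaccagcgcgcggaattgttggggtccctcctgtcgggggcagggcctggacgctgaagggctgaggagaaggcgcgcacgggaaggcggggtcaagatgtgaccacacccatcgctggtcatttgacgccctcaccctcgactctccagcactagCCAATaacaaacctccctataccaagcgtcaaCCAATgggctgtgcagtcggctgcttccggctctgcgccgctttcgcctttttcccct
Tctn3 (chr19:40612232-40612481, minus strand): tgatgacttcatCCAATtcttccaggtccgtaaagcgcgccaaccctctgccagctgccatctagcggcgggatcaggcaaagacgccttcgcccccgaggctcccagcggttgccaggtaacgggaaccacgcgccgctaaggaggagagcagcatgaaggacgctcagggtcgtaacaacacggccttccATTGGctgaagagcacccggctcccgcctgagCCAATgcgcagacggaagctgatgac
Eif4a1 (chr11:69672424-69672673, minus strand): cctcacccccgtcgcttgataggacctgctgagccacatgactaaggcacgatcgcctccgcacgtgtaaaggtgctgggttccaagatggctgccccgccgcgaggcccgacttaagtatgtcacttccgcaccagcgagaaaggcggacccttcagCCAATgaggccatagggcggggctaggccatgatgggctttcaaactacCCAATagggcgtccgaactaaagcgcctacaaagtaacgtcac
Six6 (chr12:72939632-72939881, plus strand): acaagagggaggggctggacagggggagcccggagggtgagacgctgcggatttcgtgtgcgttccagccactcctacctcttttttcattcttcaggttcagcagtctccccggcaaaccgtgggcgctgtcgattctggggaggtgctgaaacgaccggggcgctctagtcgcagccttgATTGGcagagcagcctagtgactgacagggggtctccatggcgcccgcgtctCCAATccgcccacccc
Hes5 (chr4:154960673-154960922, plus strand): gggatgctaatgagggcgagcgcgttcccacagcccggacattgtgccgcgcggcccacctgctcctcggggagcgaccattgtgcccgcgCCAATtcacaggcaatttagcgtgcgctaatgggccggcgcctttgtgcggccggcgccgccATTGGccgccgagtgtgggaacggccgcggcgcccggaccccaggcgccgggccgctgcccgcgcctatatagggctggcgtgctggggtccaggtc
Rorb (chr19:19111197-19111446, minus strand): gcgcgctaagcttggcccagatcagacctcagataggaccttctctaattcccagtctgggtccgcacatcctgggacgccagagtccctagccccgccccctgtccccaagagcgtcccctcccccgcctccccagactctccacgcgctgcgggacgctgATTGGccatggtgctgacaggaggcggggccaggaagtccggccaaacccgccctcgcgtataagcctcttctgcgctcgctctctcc

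In the Ensa sequence the Foxn4 midpoint lay 104 bp upstream of the start (position -104), and the nearest of its 3 ATTGG copies was centred 30 bp from that midpoint. Ensa encodes a small phosphoprotein that restrains a phosphatase in mitosis, and its peak (390 bp wide, score 21.3) ranked above 98.7% of the list. In Ggps1, an enzyme of isoprenoid synthesis, and Tctn3, a protein of the ciliary transition zone, a copy lay 14 and 7 bp from the midpoint. In Rab8a, a GTPase of vesicle traffic to the cilium, in the translation helicase gene Eif4a1 and in Six6, an eye field homeobox gene, it lay 8, 12 and 11 bp away. C2cd3, needed for the distal appendages of the centriole, had no copy in its 250 bases although its peak scored 13.3. In Hes5, a Notch effector, and Rorb, a nuclear receptor needed for horizontal and amacrine cells, the nearest copy lay 78 and 74 bp from the midpoint.

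Across the list, 877 peaks (29.7%, 28% to 31.3%) had their midpoint within 1 kb of an annotated end of a protein-coding gene, 945 (32%) lay inside a gene farther from its ends and 1134 (38.4%) lay between genes. These 877 peaks marked 1059 of 21887 protein-coding genes, 4.84%, and this percentage stands as the background for the gene classes below. Only 30 of the 1059 genes had 2 or more such peaks. A single peak had at least 2 genes within 1 kb in 211 cases (24.1%, 21.3% to 27%), as at Brca1 and Nbr1, Mrps12 and Sars2, or Ccdc47 and Ddx42, where the gene that a peak belongs to cannot be told.

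The promoter table gives strand and start for 17492 of these genes. Of the 877 peaks, 724 (82.6%, 79.9% to 84.9%) were within 1 kb of such a start, and 835 (91.6%) of the 912 marked genes with a listed start had the peak at their own start and 77 only at the other end. Of the 945 peaks inside a gene farther from its ends, 84 (8.89%, 7.24% to 10.9%) were within 1 kb of a start, as at Hnrnpl and Cenpj. The gene classes below are counted by gene ends and leave such starts out. Counting all peaks, 808 midpoints lay within 1 kb of a start. Of these, 702 (86.9%, 84.4% to 89%) were upstream of it and 577 (71.4%, 68.2% to 74.4%) fell in the first 250 bp upstream, with a median position of -115 bp and quartiles of -190 and -54 bp. The fullest 50 bp interval was -150 to -100 bp, with 167 peaks. In the highest score class defined below the median moved to -147 bp, against -110, -110 and -106 bp in the others.

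**Figure D1:**
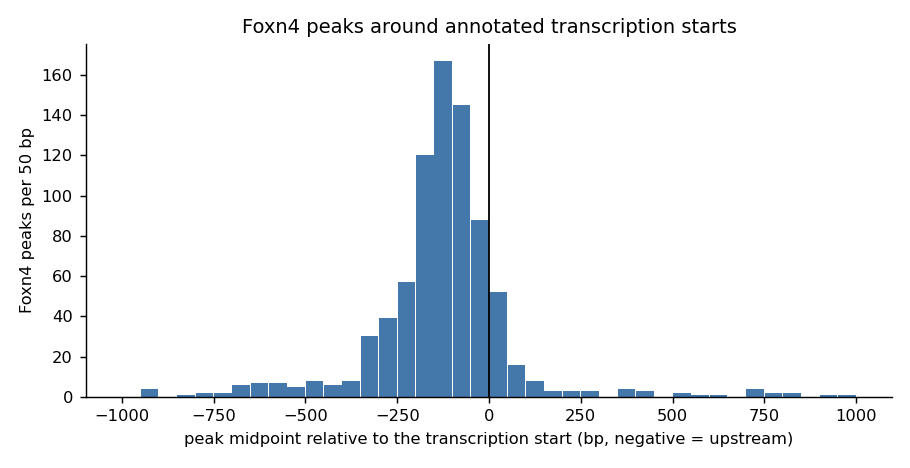
Number of Foxn4 peaks (vertical axis) by position of the midpoint relative to the nearest RefSeq start of a protein-coding gene, in 50 bp intervals (horizontal axis, negative is upstream, the line marks the start). The 808 peaks pile up just upstream, with 577 of them in the 250 bp before the start.

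Motifs were read in RefSeq windows from 250 bases before to 50 after the start, on both strands. Of 21006 distinct window sequences, 775 held a Foxn4 midpoint, belonging to 722 genes and 637 peaks, so neighbouring windows can share a peak. CCAAT was found in 545 of the 775 (70.3%, 67% to 73.4%) and in 38.2% of all windows, and at least 2 copies in 47.4% against 12.7%. Windows rich in CpG (over 55% G and C, with CpG over 0.6 of its expected frequency) made up 78.2% of those with a midpoint and 41.1% of all. Within the CpG-rich windows alone, CCAAT was in 68.5% (64.7% to 72.1%) of those with a midpoint and in 34.9% of all.

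Other motifs were read in the same windows. GACGC was in 58.2% of windows with a midpoint and in 33.7% of all, but in 61.6% (57.6% to 65.3%) and 58.5% within CpG-rich windows. CCGGAAG, the ETS site, was in 19.9% and 11.7%, and in 19.6% of both groups once CpG-rich. GGGCGG, the GC box, was in 78.6% and 46.6%, and in 85.8% and 80.1% of CpG-rich windows. The forkhead site GTAAACA was in 10 of 775 windows (1.29%, 0.702% to 2.36%) and in 3.02% of all, but in 1.49% (0.783% to 2.8%) and 1.84% within CpG-rich windows. The E-boxes CATATG and CAGCTG were in 1.03% and 11.6% against 3.1% and 15.7% of all, and the homeobox site TAATTA in 1.16% against 4.53%. Within CpG-rich windows CATATG turned to 1.16% (0.561% to 2.36%) against 0.823%, while CAGCTG was in 10.4% against 13.4% and TAATTA in 0.33% (0.0906% to 1.2%) against 0.985%. TGACGTCA, the cyclic AMP response element, was in 3.1% against 2.25%, and TTTCGCGC, an E2F site, in 12 windows (1.55%) against 0.457%. For these 2 sites the shares in CpG-rich windows were 3.14% against 3.71% and 1.49% against 0.8%.

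The CCAAT share was between 65.4% and 78% in each score class, from 121 of 185 windows (65.4%, 58.3% to 71.9%) in the lowest to 124 of 159 (78%, 70.9% to 83.7%) in the highest. GGGCGG was in 84.3% (78.4% to 88.9%) of the lowest and 67.9% (60.3% to 74.7%) of the highest class. Where CCAAT was present, its nearest copy lay a median of 29 bp from the Foxn4 midpoint and within 50 bp in 385 of 545 windows (70.6%, 66.7% to 74.3%). Of all 1234 CCAAT copies in these windows, 43.6% lay within 50 bp of the midpoint, where 32.5% of the window's bases lie. The same share was 29.1% for copies of GACGC, 33% for GGGCGG and 27.5% for CCGGAAG. The 32.5% takes no account of where CCAAT sits in promoters at large. From 50 to 110 bp upstream lay 33.4% of CCAAT copies in these windows and 31.1% in windows without a Foxn4 peak. Their median positions were -95 and -88 bp. Whether this placement alone gives the closeness to midpoints was not tested. The X-box core GTTGCC was in 16% (13.6% to 18.7%) of windows with a Foxn4 midpoint, against 12.5% of all windows and 34% (31% to 37.2%) of the 894 windows with a Foxn3 midpoint and no Foxn4 peak and 33.6% (30.8% to 36.5%) of 1053 such windows for Rfx3. CCAAT was in 57.7% and 53.5% of those windows. Of 137 windows with a Foxn4 midpoint and no peak of either other list, 59.9% (51.5% to 67.7%) held CCAAT, against 75.3% (71.4% to 78.9%) of 511 windows with both.

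**Figure D2:**
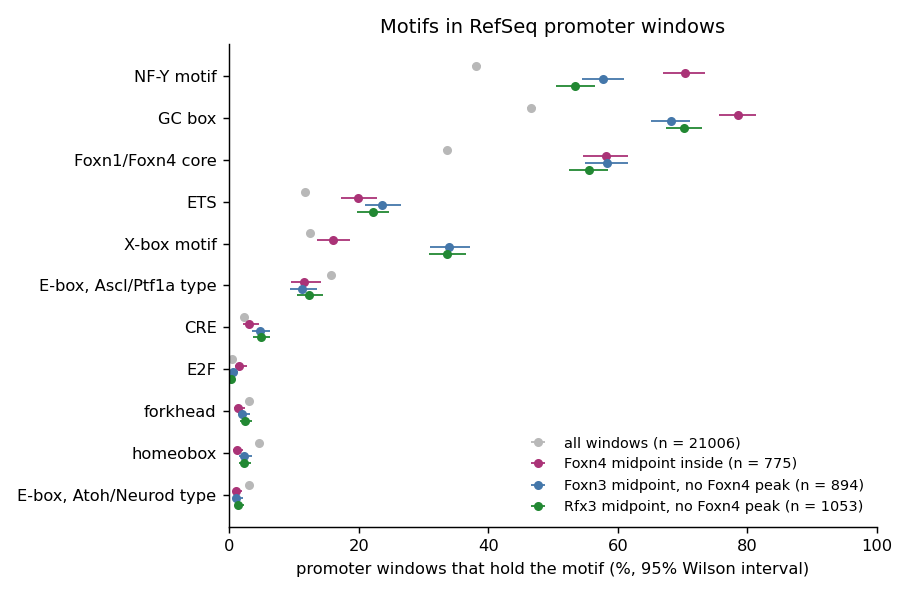
Percentage of promoter windows that hold each motif (horizontal axis, bars are 95% Wilson intervals) in all windows, windows with a Foxn4 midpoint, and windows with a Foxn3 or Rfx3 midpoint and no Foxn4 peak. The NF-Y motif (CCAAT) stood at 70.3% with a Foxn4 midpoint against 38.2% of all windows, and the X-box motif (GTTGCC) at 16% against 34% and 33.6% for the Foxn3 and Rfx3 groups.

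Genes of the primary cilium, the single sensory antenna of a cell, carried Foxn4 peaks in 22 of 115 cases (19.1%, 13% to 27.3%), beside the background of 4.84%. The Foxn3 list marked 51.3% and the Rfx3 list 61.7% of the same genes, beside their own backgrounds of 8.82% and 10.6%. From the lowest to the highest of the 4 score classes defined below, 3, 11, 3 and 5 of the 22 fell in each (13.6%, 50%, 13.6% and 22.7%), against 25.4%, 32.9%, 20.4% and 21.3% of all marked genes. In the IFT-A complex of retrograde intraflagellar transport, 3 of 9 genes were marked, Ift122 (score 7.11), Wdr19 (6.22) and Ift140 (5.33). In IFT-B, which drives anterograde transport, 3 of 20 were marked, led by Ift27 at 11.6, with Ift20 at 7.11 and Hspb11 at 6.22. The BBSome, an adaptor of membrane cargo, had 3 of 13, Bbip1 (8), Mkks (7.11) and Bbs2 (6.22). Apart from Wdr19, Ift27 and Bbs2, each marked IFT or BBSome gene shared its listed peak with another coding gene within 1 kb. Examples are Mbd4 at Ift122, Tnfaip1 at Ift20 and Shoc2 at Bbip1, and the gene that such a peak belongs to cannot be told.

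The transition zone, the gate at the base of the cilium, had 5 of 24 genes marked. Among them Tctn3 scored 12.4, and Invs, Rpgrip1 and Tmem107 scored 7.11 each. The Rpgrip1 peak is also the Hnrnpc peak, at position -265 from the Hnrnpc start and at -6617 from the nearest listed Rpgrip1 start. The Tmem107 peak lies past the other end of that gene, 2788 bp from its start, and covers the snoRNA gene Snord118. Genes of the centriole and its appendages had 6 of 30, led by C2cd3 (13.3), Sclt1 (9.78), Stil (8.89) and Cep128 (7.11). Ciliary GTPases and cargo genes had 2 of 19, Rab8a at 13.3 and the kinase Cdk20 at 8. The peaks of Tctn3, Invs, C2cd3 and Sclt1 also lay within 1 kb of another coding gene (Entpd1, Erp44, Ppme1 and D3Ertd751e). Of 17 primary cilium genes with a Foxn4 midpoint inside a promoter window, 11 held CCAAT and 6 the X-box core, against 56.3% and 34% of all 103 with a window.

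Motile cilium genes had 5 of 69 (7.25%, 3.13% to 15.9%). The axonemal dyneins and their assembly factors had 4 of 34, Ccdc151 (11.6), Dnaaf5 (6.22), Ccdc114 (5.33) and Dnaic1 (3.56). The radial spoke and central pair genes had 1 of 35, Drc3, whose peak scored 17.8. It lies just inside the annotated Drc3 gene and within 1 kb of Tom1l2. None of 18 regulators of multiciliation was marked near an end. Rfx1 among them held a peak inside the gene (15.1), at position -182 from a listed start but 3090 bp from the nearer end. That peak overlapped both other lists. The Foxn3 and Rfx3 lists marked 55.1% and 63.8% of the 69 genes.

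Genes of translation and RNA handling made up another large group. Genes with Eif symbols, mostly translation initiation factors, had 10 of 56 marked (17.9%, 10% to 29.8%), and the Foxn3 and Rfx3 lists marked 17.9% and 16.1% of them. Eif4g2 scored 11.6, and Eif2ak3, a stress kinase that shares the prefix, Eif4a1 and Eif5a scored 10.7 each. With only peaks at or above the median score, where the background is 2.85%, 8 of the 56 remained (14.3%). Cytosolic ribosomal protein genes had 9 of 86 (10.5%, 5.6% to 18.7%), among them Rps19 (9.78), Rpl36 (8.89), Rpl13a (8) and Rpl18 (7.11). Mitochondrial ribosomal protein genes had 7 of 78 (8.97%), and 5 of those 7 genes had no Foxn3 or Rfx3 peak within 1 kb, as had 203 (19.2%) of all 1059 marked genes. By score the 7 genes were led by Mrpl34 (9.78), Mrps12 and Mrps14 (8.89 each) and Mrpl48 and Mrps30 (8 each). The Mrps12 and Mrps14 peaks overlapped both other lists. Mrpl18, not counted, held a peak (10.7) at position -119 from a listed start and within 1 kb of Tcp1. Genes with symbols of tRNA synthetases had 3 of 35, Sars2 (8.89), Cars (7.11) and Yars (6.22).

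Splicing and RNA-binding genes, taken by the symbols Srsf, Snrp, Sf3, Hnrnp, Prpf, Lsm, U2af and Ddx, had 13 of 118 marked (11%, 6.55% to 17.9%). Hnrnpa1 led at 13.3, with a peak 1061 bp wide over the promoter it shares with Cbx5, and was followed by Ddx42 and Ddx54 (11.6 each) and Hnrnpa2b1 (10.7), which faces Cbx3. Genes with Exosc, Utp, Nop, Nol, Rrp, Trmt or Wdr symbols, many of them in RNA processing, had 10 of 126 (7.94%), led by Rrp9 (12.4). That family also takes in Wdr19 of the IFT-A list. Genes with Polr, Taf, Med or Gtf symbols had 6 of 104 (5.77%, 2.67% to 12%), with the Mediator genes Med19 and Med29 at 15.1 each.

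DNA damage genes had 6 of 48 (12.5%, 5.86% to 24.7%), among them Brca1 (13.3), Mdc1 (9.78), Fancm (8) and Chek2 (6.22). The Brca1 peak lay 811 bp upstream of its start and just inside Nbr1, an autophagy receptor that also counts among 4 of 27 autophagy genes with Wipi1 (8.89), Gabarap and Uvrag (7.11 each). The Gabarap peak lies past the other end of its gene, 4209 bp from the start and within 1 kb of Phf23. S phase and replication genes had 3 of 42, Mcm5 (6.22), Mcm9 (5.33) and Gins2 (3.56), all under the median score. Orc4, not counted, held a peak (8.89) at position -176 from a listed start, 3459 bp from its nearer end and within 1 kb of Mbd5. Ubiquitin ligases and proteases had 23 of 321 (7.17%, 4.82% to 10.5%), led by Rnf5 (16) and Usp5 (12.4). Proteasome genes had 3 of 49 and respiratory chain genes 5 of 105 (4.76%, 2.05% to 10.7%), the latter near the background.

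Retinal progenitor genes had 6 of 34 marked (17.6%, 8.35% to 33.5%), while the Foxn3 list marked 2 and the Rfx3 list 4 of them. Six6 scored 10.7, Hes5 8.89, the proneural factor Neurog2 8 and the secreted factor Fgf15 7.11. The Notch list had 5 of 36 (13.9%, 6.08% to 28.7%), Hes5, Numb (8), an inhibitor of Notch, Hes6 (7.11), and Maml1 and Hes1 (4.44 each). No ligand or receptor of Notch was marked near an end, but Notch1 held 2 inside the gene, the higher-scoring one (16) 2937 bp from its start. Counts in the lists of differentiating cells were too small to tell from the background of 4.84%: 1 of 30 amacrine and horizontal genes (Rorb, 8.89), 2 of 20 photoreceptor genes (Rorb and Mef2d, 4.44), 1 of 30 ganglion cell genes (Klf7, 8.89) and 0 of 17 bipolar and glial genes. Endothelial and microglial markers had 0 of 15, and the Hedgehog list had 1 of 20, Gas1 at 6.22. Ptch1, not counted, held a peak inside the gene (9.78) at position -677 from a listed start, 7048 bp from the nearer end. Together the 5 retinal lists had 9 of 118 genes (7.63%, 4.06% to 13.9%).

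Counting peaks anywhere inside a gene or within 1 kb of it raised the retinal lists to 19 of 118 (16.1%), beside 7.92% of all protein-coding genes. Pax6 had 2, the higher-scoring one (9.78) 6580 bp into the gene, Nfia one 976 bp past its start (7.11) and Nr2e1 one 2927 bp past its start (5.33). The highest-scoring of these was in Meis1, whose peak scored 26.7 and overlapped both other lists. Meis1 had 4 peaks in 139 kb, 2.87 per 100 kb, second to Tex14 among genes over 100 kb.

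Most families of surface proteins were rarely marked at their ends. Potassium channels, cadherins and protocadherins, guidance receptors and ligands, glutamate and GABA receptors, and collagens had 4 of 328 genes (1.22%, 0.475% to 3.09%), which were Kcnn1 and Ephb3 (8.89 each), Epha7 (7.11) and Ephb2 (5.33). The 3 Eph genes belong to the guidance family, which by itself had 3 of 51 (5.88%, 2.02% to 15.9%), near the background of 4.84%. With peaks inside the gene the 5 families together had 32 of 328 (9.76%). Their genes had a median length of 59.8 kb against 17.2 kb for all protein-coding genes. Olfactory and vomeronasal receptors had 0 of 1459, and Slc transporters 7 of 360 (1.94%, 0.945% to 3.96%), of which Slc25a41, Slc25a28 and Slc25a42 scored highest at 16.9, 12.4 and 12.4. The Slc25a41 peak is also the Khsrp peak, at position -336 from the Khsrp start and 929 bp from the nearer end of Slc25a41. Zinc finger genes with Zfp symbols or the related Zscan and Zkscan had 15 of 424 (3.54%), homeobox families 4 of 102, and Sox genes 0 of 20.

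**Figure D3:**
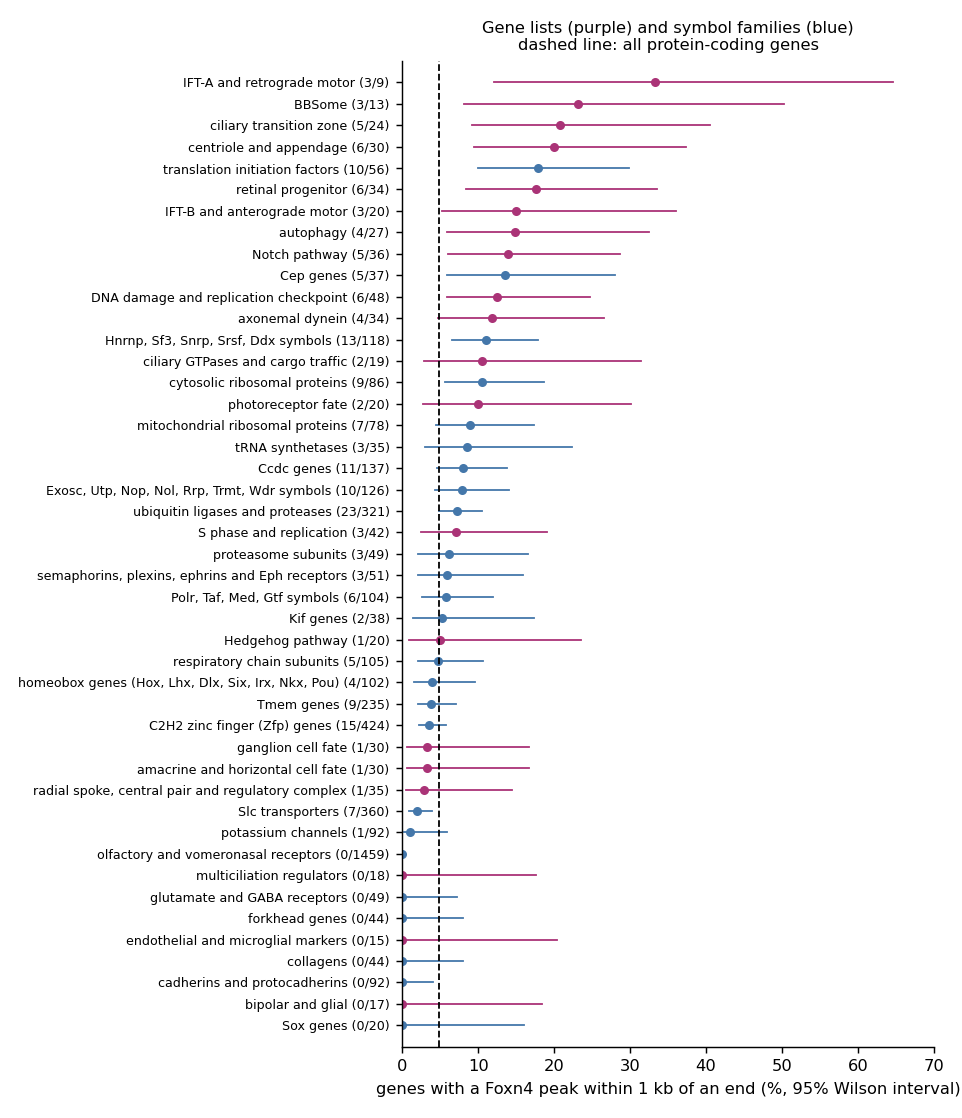
Percentage of the genes of each list (purple) or symbol family (blue) with a Foxn4 peak within 1 kb of an end (horizontal axis, bars are 95% Wilson intervals), with the count of marked genes of all matched genes beside each name. The dashed line at 4.84% is the value for all protein-coding genes. The 6 primary cilium lists, the Eif genes, axonemal dynein (4 of 34) and the semaphorin, plexin, ephrin and Eph family (3 of 51) lie right of it. The radial spoke (1 of 35) and multiciliation (0 of 18) lists lie left of it, and so do the channel, cadherin, collagen and olfactory receptor families. Many intervals include the line, among them those of ciliary GTPases, axonemal dynein, radial spoke, multiciliation, potassium channels and collagens.

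No forkhead gene was marked within 1 kb (0 of 44, 0% to 8.03%). Foxn4 itself held a peak inside the gene, 9556 bp from its start, with a score of 5.33 and overlap with both other lists. Foxn3 held 3 peaks, the one nearest an end scoring 15.1 and 30.5 kb from it. The nearest peak lay 166 kb from Foxn2, 244 kb from Foxj1, the master factor of motile cilia, and 566 kb from Rfx3.

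Among genes reported as Foxn4 targets or retinal fate regulators, Rorb alone of the 11 examined was marked within 1 kb, 160 bp upstream of its start (372 bp wide, no overlap with either other list). Crx, Neurod4 and Neurod1, regulators of photoreceptor and amacrine neurons, had peaks 1633, 1927 and 2546 bp upstream of their starts, with scores of 6.22, 3.56 and 9.78. Of these, the Neurod1 peak overlapped the Rfx3 list. Casz1 held 2 peaks inside the gene. The nearest peak to Atoh7 was 10.3 kb away, to Prox1 21.4 kb and to Otx2 48.1 kb. None lay within 50 kb of Dll4 (nearest 122 kb), Ptf1a (970 kb) or Onecut1 (2607 kb). How such distances compare with those of other genes was not tested.

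The highest score within 1 kb of a gene end was 26.7, in a peak of only 84 bp inside Zfp324 that neither other list held. Next came a peak beside Zbtb20 (25.8, 971 bp), 248 bp outside the annotated gene, and one in Sirt4 (25.8), at the snRNA gene Gm24265. Ensa (21.3), Khdc4 (19.6), the mitochondrial import gene Tomm40, Ggps1, Drc3 with Tom1l2 (17.8 each), Lin52 and Khsrp (16.9 each) completed the highest 10. Of these 10, 8 overlapped both other lists and Khdc4 the Foxn3 list only. The Lin52 peak lay past the other end of that gene, 80964 bp from its listed start. Peaks near genes that neither other list held scored lower: after Zfp324 the highest were Esyt1 and Fchsd2 at 10.7.

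Small nuclear RNA genes, which encode the RNA parts of the spliceosome and, for U3, of ribosomal RNA processing, lay at some of the strongest Foxn4 peaks. RefSeq lists 1004 of them, many of them copies, and 29 (2.89%, 2.02% to 4.12%) had a peak within 1 kb, close to the 2.68% of RefSeq genes of every class. The 15 with Rnu symbols, the named spliceosomal and U3 genes, had 10, against 11 in the Foxn3 and 8 in the Rfx3 list. The 30 peaks involved had a median score of 13.3 and a median width of 706 bp, against 7.11 and 351 bp for the whole list, and 26 of them were in the highest score class. They made up 11 of the 28 peaks wider than 900 bp and 4 of the 16 that scored 26 or more.

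On chromosome 11, 7 peaks inside Tex14 (chr11:87422864-87472487) all lay at snRNA genes, among them Rnu1a1 (30.2), Rnu3b4 (32), Rnu3b3 (26.7), Rnu3b2 (21.3), Gm22068 (17.8) and Rnu3b1 (17.8). A second group there (chr11:101627279-101659189), near Arl4d and Rdm1, had 4 peaks, with Gm24950 at 32.9 and Rnu2-10 at 24.9. Single genes included Rnu5g on chromosome 9 (25.8, 1230 bp), Rnu3a (14.2), Rnu12 (10.7) and Rnu11 (9.78). Of the 30 peaks, 26 overlapped the Foxn3 list, 17 the Rfx3 list and 3 neither. Reads from near-identical snRNA copies can be placed on more than one copy, and how the authors treated such reads is not given in the sources used here.

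Score classes were cut at the quartiles: 865 peaks scored 2.67 to 5.33, 832 scored 6.22 to 7.11, 536 scored 8 to 8.89 and 723 scored 9.78 to 37.3. The share within 1 kb of a gene end was 26.4%, 34%, 34.3% and 25.2% from lowest to highest, with no steady direction. Across peaks, Spearman's rho was 0.05 between score and distance to a gene end, -0.03 between score and width and 0.06 between width and distance. Width and score nonetheless varied together at the extremes: the 81 peaks under 150 bp had a median score of 12.4 and the 180 peaks of at least 600 bp one of 10.7, against 6.22 to 8 for the widths between.

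**Figure D4:**
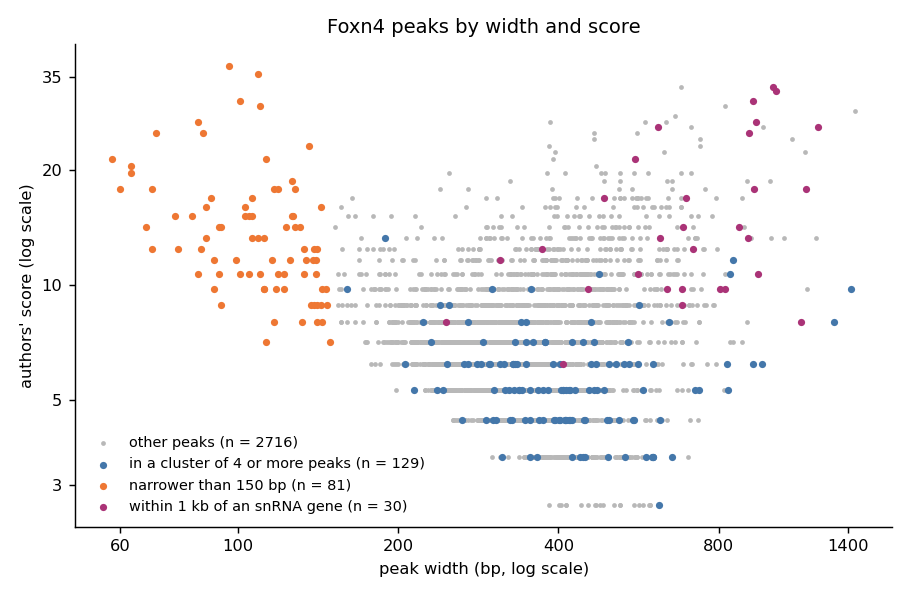
Width (horizontal axis, log scale) and authors' score (vertical axis, log scale) of each Foxn4 peak, coloured by class (a peak in several classes is drawn as snRNA first, then narrow). Narrow peaks and peaks at snRNA genes reach the highest scores at opposite widths, while clustered peaks mostly score under 10.

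Overlap with the other lists went with score at every position. Within 1 kb of a gene end, 50% (43.6% to 56.4%) of the lowest and 90.1% (84.9% to 93.7%) of the highest class overlapped a Foxn3 peak, and 56.6% and 89% an Rfx3 peak. Inside genes but farther from their ends the Foxn3 share went from 11.9% to 53% and the Rfx3 share from 15% to 41%. Between genes they went from 7.43% to 44.5% and from 7.16% to 29%. The level also differed by distance: 65.6% of peaks within 100 bp of an end and 68.9% of those from 100 bp to 1 kb overlapped Foxn3, against 43.5% from 1 to 5 kb, 22.6% from 5 to 50 kb and 23.7% beyond. For Rfx3 the shares were 70.4%, 74.1%, 43.9%, 20% and 15.8%. By width, peaks of at least 600 bp overlapped Foxn3 in 63.9% and Rfx3 in 55.6% of cases, against 35.7% and 36.2% for widths from 150 to 300 bp. Because 1 shared base counts as overlap, a wider peak has more room to overlap. The median scores of these width classes also differed, 10.7 against 7.11. What width itself adds to the shares was not tested.

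**Figure D5:**
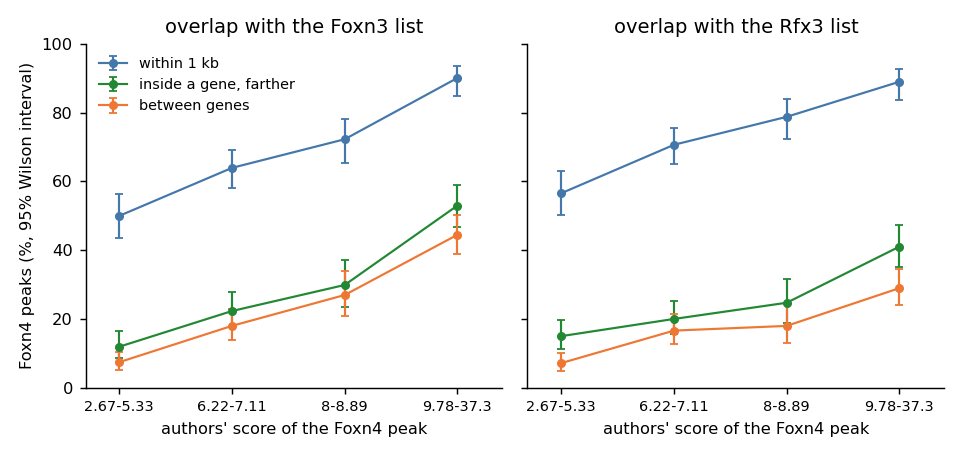
Percentage of Foxn4 peaks that overlap a Foxn3 peak (left) or an Rfx3 peak (right) by score class (horizontal axis), for peaks within 1 kb of a gene end, inside a gene farther from its ends, and between genes. Bars are 95% Wilson intervals, and each line is higher in the highest class than in the lowest, from 50% to 90.1% for Foxn3 near genes.

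The narrow peaks differed from the others in score, in distance to gene ends and in overlap, while their share inside genes away from the ends (35.8%) was near that of the other widths (30.5% to 34.4%). Of the 81, 2 lay within 1 kb of a gene end (2.47%, 0.68% to 8.56%), 2 overlapped the Foxn3 list and 0 the Rfx3 list, which allows a share of up to 3.7% by 3 counts. Yet 69 of them were in the highest score class, and the highest scores of the list were among them. These were a 96 bp peak (chr8:98882547-98882642, score 37.3), 142 kb from Cdh8, and a 109 bp peak (chr13:97374430-97374538, 35.6), 121 kb from Enc1. Others lay inside Sf3b2 (101 bp, 30.2), Tnpo1 (110 bp, 29.3) and Itga4 (86 bp, 24.9). Gel selection kept library fragments of 200 to 500 bp with their adaptors, per the labels' protocols. The part of the score's scaling or of the IgG background in these peaks was not tested.

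Peaks also gathered in clusters. With gaps of up to 20 kb, 18 groups of at least 4 peaks held 147 peaks (4.97%). The largest had 43 peaks in 153 kb (chr2:77870012-78023289) over and beside Cwc22, a splicing factor gene, with scores from 3.56 to 11.6, and none overlapped either other list. Cwc22 alone held 24 peaks inside it or within 1 kb, including the second widest peak of the list (1419 bp). The others of size were 15 peaks around Cd244a and Itln1 on chromosome 1, 14 on chromosome 2 (chr2:177496514-177525315) and 11 at 1600014C10Rik on chromosome 7, with median scores of 4.44, 4.44 and 6.22. In 12 of the 18 clusters, with 109 peaks, no peak overlapped the other lists, while the 4 clusters that include snRNA genes hold 30 peaks and overlapped the others in part or whole. Copy number of these loci in CD-1 mice and IgG signal there were not analysed here.

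Leaving out peaks at snRNA genes, the highest-scoring peaks over 1 kb from any gene end that both other lists also held lay 251 kb from Anxa1 (chr19:20122443-20123121, score 32.9), 206 kb from Mef2c (24.9) and inside Ralgapa2 (29.3), Nlgn1 (28.4), Tle4 (27.6), Ppp3ca, Auts2 and Meis1 (26.7 each), Atp8a2 (25.8) and Gldc (24.9). The Nlgn1 peak was the widest of the list at 1446 bp and lay 7876 bp past a start of this synaptic adhesion gene. Tle4, a corepressor gene, had 3 peaks in 150 kb and Auts2, a gene of neuronal development, 5 in 1106 kb. Other long genes with many peaks were Lrrc4c and Tenm3 (7 each, in 1314 and 1297 kb) and Galntl6 (6 in 1140 kb), and no Galntl6 peak overlapped another list. The other widest peaks were 1321 bp beside Cwc22, the Rnu5g peak and one of 1222 bp in Fbxw7 (13.3).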

How the data were processed

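CUT&RUN was run on retina at embryonic day 16, and the deposited Foxn4 peak list gives a position and a score for each peak. The score is the authors' own value and was used only to rank peaks. The submitters' processing notes name cutadapt, Bowtie2, UMI-tools, bedtools and SEACR and the mm10 build, with no role, order or version. The peak threshold, the use of the IgG libraries and the combination of replicates are not given in the sources used here, and depth is unknown from the peak list.

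Midpoints were assigned to protein-coding genes of the RefSeq GRCm38.p6 table (21887 genes on chromosomes 1 to 19, X and Y) within 1 kb of either end. Starts, strand and sequence came from RefSeq promoter windows (21263 windows of 17492 genes, none on chromosome 18). Overlap with the other lists meant at least 1 shared base. Python 3.11.15 scripts with numpy 2.4.6, pandas 2.3.3, scipy 1.17.1 and matplotlib 3.10.9 were used, and the code was tested on simulated data. Because the file is a single list, no test was run.

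The regions, the 20 gene lists and the 25 symbol families were chosen with earlier results of these data known. Named genes were the 10 highest-scoring peaks near genes and the 5 highest farther away, up to 4 top members of each list, 16 set regulators, the 5 widest peaks and the 10 genes with most peaks. Others, such as snRNA genes, clusters, narrow peaks, genes with a peak only inside and peaks in all lists, were chosen after their values were seen. Alternatives changed the distance, score, width, overlap and gene rule.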

Additional observations from a re-analysis of the deposited data

How the results depend on the processing

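Each setting was changed alone. The count of 1059 marked genes was 952 at 500 bp, 1179 at 2 kb, 1455 at 5 kb and 624 with peaks at or above the median score. The share of peaks near a gene end (29.7%) was 34.1% with all genes of the table, 27.1% at 500 bp, 32.5% at 2 kb and 37.7% at 5 kb. Overlap with Foxn3 (38%) and Rfx3 (36%) fell to 30.9% and 27.3% when midpoints had to lie within 100 bp. From the lowest to the highest score class, overlap rose by 38.9 percentage points for Foxn3 and 25.7 for Rfx3. With 10 score classes the values were 56.4 and 38, and with peaks of at least 150 bp 45 and 30.8. The share near gene ends differed by -1.19 points between those classes (-5.47 to 3.15), and by 2.7 with 10 classes. The CCAAT share (70.3%) was 66.2% for windows with any overlap, an alternative chosen after seeing the data, and between 68.5% and 72.4% in the other 5 added alternatives. Without clustered peaks, also added later, 1047 genes were marked and all 46 lists stayed within their intervals.

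Of the 46 lists and families, 10 changed side of the background with peaks at or above the median score, 6 at 5 kb and 17 when every peak was given its nearest gene. No paired analysis was possible because the peak list does not separate replicates, and no replicate could be left out. Small lists have wide intervals, and a peak missing at this unknown depth does not show that binding is absent.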

Other observations

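Histone genes, a family added after the data were seen, had 9 of 72 members with a Foxn4 peak within 1 kb (12.5%, 6.72% to 22.1%), beside 4.84% of all protein-coding genes. H2bc14 scored 11.6, and the other 8 scored between 3.56 and 6.22. For 5 of the 9 genes neither other list had a peak within 1 kb, against 19.2% of all marked genes, and 3 pairs of the 9 share a peak. All 8 with a Foxn4 midpoint inside their promoter window held CCAAT there, as did 81.8% of the 66 histone genes with a window.

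Other noncoding gene classes had lower shares than the 2.68% of RefSeq genes of every class, though the tRNA interval includes that value. MicroRNA genes had 14 of 1228 (1.14%, 0.68% to 1.9%), among them Mir9-2 (score 8), which is abundant in neural progenitors, Mir7-2 and Mir210 (5.33 each) and Mir484 (4.44). Long noncoding RNA genes had 201 of 12727 (1.58%), tRNA genes 6 of 408 (1.47%, 0.676% to 3.17%), snoRNA genes 4 of 1340 and pseudogenes 17 of 9944 (0.171%). Many of these peaks also lay at protein-coding genes. No coding gene end was within 1 kb for 88 of 204 peaks at long noncoding RNA genes and 6 of 15 at microRNA genes. The counts were 1 of 6 at tRNA genes, 0 of 4 at snoRNA genes and 13 of 18 at pseudogenes. Of the snRNA genes over 200 bp long, 5 of 6 were marked. These were the U3 genes Rnu3a and Rnu3b1 to Rnu3b4, and the Rnu3b genes all belong to the Tex14 group on chromosome 11.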
